A study of Mus musculus with 6 samples.

Results

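The nuclei described here are those of a single-nucleus RNA-seq study of mouse brain that passed a rule on *Enpp6* and 12 other genes, and that were labelled newly formed *Enpp6* oligodendrocytes. They were chosen by their unique molecular identifiers (UMIs, 1 per captured RNA molecule): at least 2 of *Enpp6* and at least 4 of *Bcas1* and *Tns3* together, with at most 2 of *Gpr17*, *Neu4* and *Bmp4*, at most 1 of *Pdgfra* and *Cspg4*, at most 1 of *Anln* and *Hapln2*, and at most 3 of *Casr*, *Cemip2* and *Cnksr3*. Of 60724 nuclei kept at 300 or more genes and at most 1% mitochondrial UMIs, 425 passed (0.70%), and they are called the Enpp6 nuclei below. All 13 of these genes were used in the choice, so their levels and the differences between stages of the lineage are given as a description, without a test.

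The study compared 3 mice given lysophosphatidic acid (LPA) with 3 mice given vehicle (0.01% bovine serum albumin), each injected with 5 µl into the lateral ventricle at postnatal day (P) 7 and collected at P15. LPA is a signaling lipid of blood, and its injection serves as a mouse model of post-hemorrhagic hydrocephalus. The mice were of the C57BL/6 S-56 strain with no transgene, and the labels do not give the concentration of LPA that these 3 mice received. Each library held nuclei of 1 brain without olfactory bulbs and cerebellum, sorted as negative for the neuronal protein NeuN. By *Xist* and Y-linked UMIs, LPA 1, vehicle 1 and vehicle 3 were male and LPA 2, LPA 3 and vehicle 2 were female.

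Oligodendrocytes make the myelin of the central nervous system. They arise from *Pdgfra* precursors, pass through a committed stage marked by *Gpr17*, and then become newly formed oligodendrocytes, which have left the cell cycle and extend processes before they wrap axons. *Enpp6* encodes a choline-specific phosphodiesterase and is a known marker of this newly formed stage. *Bcas1* encodes a protein of early myelinating cells, *Tns3* an adaptor at integrin adhesions, and *Tcf7l2* a transcription factor of Wnt signaling that peaks as precursors differentiate. *Tcf7l2* was named as a marker of these nuclei but was not part of the rule, so it can serve to check the label.

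The promoters of *Enpp6* and *Tcf7l2* are shown because these 2 genes carry the description that follows. Each covers 250 bases before to 50 bases after a start site in RefSeq (GRCm38.p6, plus strand), and capitals mark AACAAT or its reverse complement ATTGTT, the core letters bound by SOX factors such as SOX10. *Enpp6* lies at chr8:46986637-46986936 and *Tcf7l2* at chr19:55741560-55741859. RefSeq gives *Tcf7l2* a second start, with a window at chr19:55895071-55895370 that holds no such match and is not printed.
Enpp6: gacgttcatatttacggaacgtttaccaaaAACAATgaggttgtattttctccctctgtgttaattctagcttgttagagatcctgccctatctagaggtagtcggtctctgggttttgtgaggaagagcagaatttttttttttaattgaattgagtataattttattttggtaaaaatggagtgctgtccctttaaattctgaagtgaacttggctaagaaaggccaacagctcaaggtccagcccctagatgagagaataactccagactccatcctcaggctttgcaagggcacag
Tcf7l2: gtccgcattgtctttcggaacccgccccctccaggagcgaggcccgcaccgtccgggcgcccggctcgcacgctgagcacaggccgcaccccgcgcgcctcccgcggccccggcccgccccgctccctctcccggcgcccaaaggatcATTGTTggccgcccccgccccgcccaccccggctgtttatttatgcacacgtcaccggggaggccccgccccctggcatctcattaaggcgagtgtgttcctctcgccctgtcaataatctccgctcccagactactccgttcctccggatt
These letters occurred in 10.7% of 32851 promoters of this length. The core of TCF sites, CTTTGA on either strand, occurred in 16% of all promoters and in neither of these. A match is only a match of letters, and no binding was measured.

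The Enpp6 nuclei did not form 1 uniform population. Of the 425 nuclei, 186 held no *Tcf7l2* UMI (43.8%), 102 held 1 or 2 (24.0%), and 137 held 3 or more (32.2%). *Tcf7l2* was at 553, 566 and 528 CPM (its UMIs per 1000000 UMIs, summed over the nuclei of a library) in LPA libraries and at 427, 724 and 722 CPM in vehicle libraries. In nuclei with microglial markers, where *Tcf7l2* should be low, it was at 350 to 580 CPM. Over all Enpp6 nuclei 4 libraries thus lay within the range of the microglial nuclei and vehicle 2 and 3 above it. All 6 lay above the 136 to 199 CPM of the mature gate and below the 987 to 1251 CPM of the committed gate and the 2306 to 2566 CPM of the myelin-forming gate. The label thus held for only some of the nuclei, and no new name is given to the rest.

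Nuclei with 3 or more *Tcf7l2* UMIs had higher levels of genes known from newly formed oligodendrocytes than nuclei without *Tcf7l2*. Their *Tcf7l2* level was 1288, 1747 and 1847 CPM in LPA libraries and 1725, 2433 and 1875 CPM in vehicle libraries. *Itpr2*, an intracellular calcium channel and a marker of differentiating cells, was at 758 to 1839 CPM in them and at 34.0 to 254 CPM in those without *Tcf7l2*. *Fyn*, a kinase that acts downstream of axonal contact, was at 1446 to 3436 CPM against 194 to 349 CPM. *9630013A20Rik*, a noncoding RNA annotated as antisense (chromosome 14, 84458639 to 84476424), was at 368 to 1620 CPM against 68.1 to 209 CPM. For each of the 3 genes the lowest library with *Tcf7l2* lay above the highest without it. None of the 3 was limited to these nuclei. In the committed gate *Itpr2* was at 1237 to 1683, *Fyn* at 2780 to 3612 and *9630013A20Rik* at 526 to 929 CPM, and in the myelin-forming gate they were at 1524 to 1755, 1298 to 1427 and 2614 to 3491 CPM.

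Of 6474 genes tested that the rule did not use, 54.4% had a higher mean and 11.0% were higher in all 6 libraries in the nuclei with 3 or more *Tcf7l2* UMIs than in those without, and the median ratio was 1.04. Of 18 genes on a list for the newly formed stage, 16 had a higher mean, 12 of them in all 6 libraries, and the median ratio was 2.73. Other lists were higher as well: 26 of 29 transmitter and channel genes tested (median ratio 2.22), 14 of 18 matrix genes (3.93), 26 of 34 adhesion genes (1.86) and 9 of 9 astrocyte markers (3.37). The difference was thus not limited to the newly formed genes. *Tcf7l2* is one of the 18, so its own difference was set by the split. *Slc12a2*, a chloride cotransporter, and *Strn*, a scaffold protein, were lower, with mean levels of 244 against 493 CPM and 205 against 294 CPM.

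Nuclei without *Tcf7l2* instead carried myelin genes. *Mog*, a glycoprotein of the outer myelin surface, was at 1516, 1934 and 1584 CPM in LPA libraries and at 1634, 1375 and 1533 CPM in vehicle libraries. In nuclei with 3 or more *Tcf7l2* UMIs *Mog* was at 279 to 723 CPM, and it was at 1303 to 1454 CPM in the mature gate. *Mobp*, a basic protein of compact myelin, was at 3603 to 5321 CPM without *Tcf7l2*, at 552 to 2232 CPM with 3 or more UMIs, and at 3320 to 3923 CPM in the mature gate. The ranges with and without *Tcf7l2* did not overlap for either gene. The mature gate required at least 3 UMIs of *Mag*, *Mog* and *Mobp* together. Its levels of these genes thus describe nuclei that were chosen by them. Of 27 myelin genes tested, of 30 on the list, 24 had a lower mean in the nuclei with 3 or more *Tcf7l2* UMIs, 22 of them in all 6 libraries. Over all 6474 genes these shares were 45.6% and 11.1%. *Cd9*, a tetraspanin, was the one that was higher in all 6 libraries, with means of 215 against 67.7 CPM. Of 21 genes of cholesterol synthesis tested, of 23 on the list, 20 had a lower mean, 12 of them in all 6 libraries. This pathway supplies the main lipid of myelin, and *Hmgcs1*, an early enzyme of the pathway, was at 134 against 387 CPM.

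**Figure D1:**
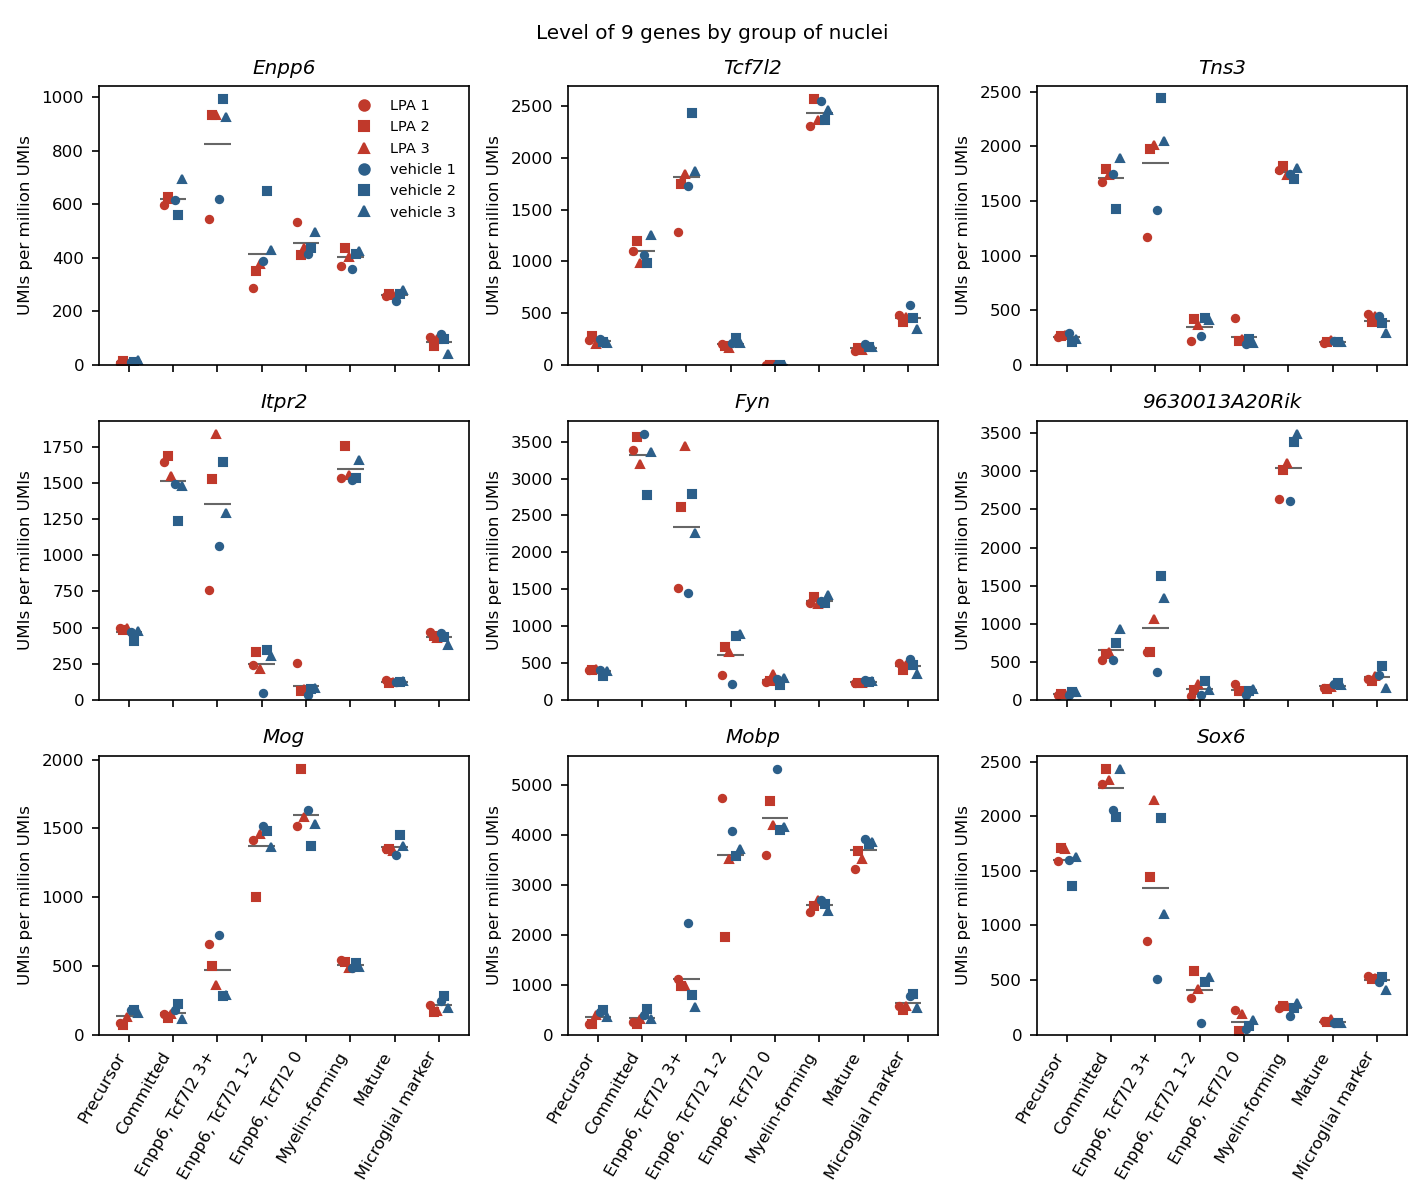
Level of 9 genes in CPM (y axis) in 8 groups of nuclei (x axis), with 1 point per library and a bar at the mean. Enpp6 nuclei with 3 or more *Tcf7l2* UMIs had *Itpr2* at 758 to 1839 and *Mog* at 279 to 723, and those without *Tcf7l2* had *Itpr2* at 34.0 to 254 and *Mog* at 1375 to 1934.

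Rule genes also differed between these groups, but the rule set limits on their UMIs, so their levels are a description only. *Enpp6* was at 546, 934 and 936 CPM in LPA libraries and at 621, 993 and 927 CPM in vehicle libraries in nuclei with 3 or more *Tcf7l2* UMIs. Without *Tcf7l2* it was at 411 to 535 CPM, which overlapped the 360 to 438 CPM of the myelin-forming gate. The mean number of *Enpp6* UMIs per nucleus was 4.72 with and 2.81 without *Tcf7l2*. LPA 1 and vehicle 1 had the lowest *Enpp6*, *Fyn* and *Tcf7l2* levels of the 6 libraries among the nuclei with 3 or more *Tcf7l2* UMIs. *Tns3* was at 1166 to 2439 CPM against 195 to 427 CPM, and *Bcas1* at 1738 to 4227 CPM against 802 to 1425 CPM.

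Genes of the preceding stages were also higher in the nuclei with *Tcf7l2*. Of 21 genes typical of precursors tested, of 25 on the list, 19 had a higher mean with 3 or more *Tcf7l2* UMIs, 13 of them in all 6 libraries, beside 54.4% and 11.0% of all genes. *Tnr*, the matrix protein tenascin-R, was at a mean of 5012 against 198 CPM, and *Sox6*, a transcription factor that holds back terminal differentiation, at 1340 against 117 CPM. *Sox4*, another such factor, was at 129 against 9.58 CPM. The pan-lineage factors *Sox10* and *Olig2* differed less, at 368 against 277 CPM and 54.8 against 38.5 CPM, and *Myrf*, which drives myelin genes, was at 140 against 159 CPM. *Zfp536* and *St18*, zinc-finger factors, were lower with *Tcf7l2* in all 6 libraries, at 1233 against 2521 CPM and 2737 against 4310 CPM.

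Astrocyte and neuron markers and mitochondrial RNA moved with this division. Summed over 12 astrocyte markers, the level was 1968 to 4583 CPM with 3 or more *Tcf7l2* UMIs and 618 to 2106 CPM without *Tcf7l2*. All 12 genes had the higher mean with *Tcf7l2*, none was at 0 in every library, and all other nuclei held 4737 to 5897 CPM. Mitochondrial genes, a sign of RNA from outside the nucleus, were higher as well, 8 of 8 in their mean and 3 of 8 (37.5%) in all 6 libraries, beside 11.0% of all genes, with a median ratio of 1.48. Their sum was 255 to 1016 CPM with and 110 to 723 CPM without *Tcf7l2*. Neuron markers were at 3433 to 7609 CPM with and 982 to 4399 CPM without *Tcf7l2*. Immune markers had the higher mean with *Tcf7l2* in 7 of 12 genes, ependymal and choroid plexus markers in 6 of 10 and vascular markers in 10 of 12. This is beside 54.4% of all genes tested. In these 3 lists 0 genes were higher in all 6 libraries. The doublet caller Scrublet marked 35.0% of the nuclei with 3 or more *Tcf7l2* UMIs, 26.5% of those with 1 or 2 and 16.1% of those with none. Among all nuclei kept it marked 16.3% to 19.6% per library. LPA 1 stood apart, with 73.3% of its 15 nuclei with 3 or more *Tcf7l2* UMIs marked and a median of 8314 UMIs per nucleus in them, against 3865 to 5532.5 in the other 5 libraries. The part of doublets and of mitochondrial RNA in the difference was not tested.

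**Figure D2:**
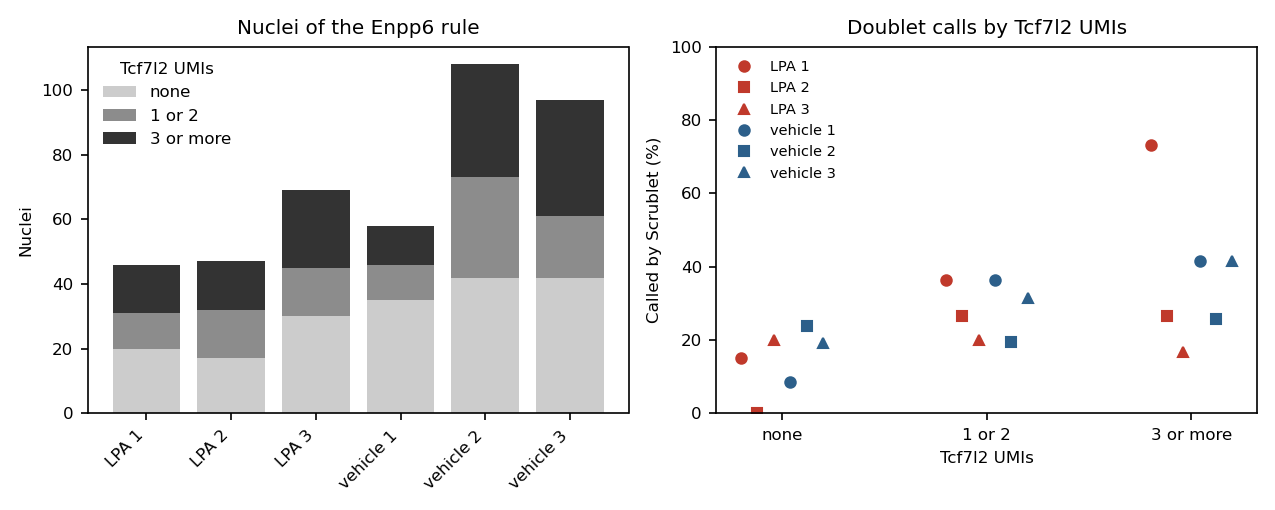
Number of Enpp6 nuclei per library by their *Tcf7l2* UMIs (left, stacked bars) and percent of them called by Scrublet (right, 1 point per library). The 3 groups held 186, 102 and 137 nuclei, and LPA 1 had the highest percent called, 73.3%, among nuclei with 3 or more UMIs.

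The 15 genes with the highest ratio of their level in Enpp6 nuclei to that in all other nuclei included 13 that were higher still in the mature gate. *Enpp6* was the third of them, with 550 against 120 CPM, and was the only rule gene among them. *Galnt5*, a glycosyltransferase, led with 46.9 against 9.26 CPM. *Carns1*, which makes carnosine, was at 194 against 40.7 CPM, and *Mal*, a proteolipid of myelin, at 373 against 84.6 CPM. *Ermn*, a cytoskeletal protein of myelinating cells, was at 106 against 25 CPM, *Sec14l5* at 632 against 151 CPM and *Prr5l* at 1117 against 293 CPM. In the mature gate these 6 genes were at 53, 253, 434, 122, 783 and 2095 CPM. These values come from the nuclei that were selected and are a description.

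*Opalin*, a membrane glycoprotein of oligodendrocytes, was higher in the Enpp6 nuclei than in the gates of the neighbouring stages, and was singled out after its values were seen. It was at 177, 153 and 230 CPM in LPA libraries and at 284, 168 and 137 CPM in vehicle libraries, against 91.3 to 125 CPM in the mature gate, 74.8 to 91.1 CPM in the myelin-forming gate and 15.8 to 38.5 CPM in the committed gate. The order held in all 6 libraries. In nuclei with 3 or more *Tcf7l2* UMIs *Opalin* was at 15.6 to 216 CPM and in those without it at 136 to 340 CPM. *Enpp6* itself was not highest here: it was at 455 to 642 CPM, overlapping the 558 to 694 CPM of the committed gate. This was above the mature gate at 241 to 282 CPM and the precursor gate at 7.44 to 19.8 CPM. The precursor gate allowed at most 1 *Enpp6* UMI, so its low level was set by that limit.

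The rule lies close to other nuclei on most sides. With exactly 2 *Enpp6* UMIs 188 nuclei were inside, and 489 nuclei with 1 *Enpp6* UMI failed on that gene alone. *Enpp6* was at 328 CPM in the former and 159 CPM in the latter, and *Tcf7l2* at 292 and 160 CPM. At the limit towards mature nuclei 153 were inside with 1 UMI of *Anln* or *Hapln2* and 158 were outside with 2, with *Tcf7l2* at 179 and 81.5 CPM. At the limit towards committed precursors 88 were inside with 2 UMIs of *Gpr17*, *Neu4* and *Bmp4* and 112 outside with 3, with *Tcf7l2* at 1379 and 1695 CPM. At the limit towards myelin-forming nuclei 63 were inside with 3 UMIs of *Casr*, *Cemip2* and *Cnksr3* and 82 outside with 4, with *Tcf7l2* at 1314 and 1780 CPM. *Tcf7l2* was thus high at these 2 edges and low at the edge towards mature nuclei.

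Enpp6 nuclei were 0.540%, 0.458% and 0.758% of the nuclei kept in LPA libraries (46, 47 and 69 nuclei) and 0.716%, 0.870% and 0.787% in vehicle libraries (58, 108 and 97 nuclei). The 95% exact binomial intervals, which cover counting error only, were widest for LPA 3 (0.590% to 0.958%) among LPA libraries and vehicle 1 (0.544% to 0.924%) among vehicle libraries. LPA 3 lay within the range of the vehicle libraries. The mean share was 0.585% ± 0.155 (SD, n = 3) after LPA and 0.791% ± 0.0773 (SD, n = 3) after vehicle, and a two-sided exact permutation test gave p = 0.2. With 3 libraries per group the smallest p possible is 0.1, so no share could pass 0.05. Of 11191 nuclei in any of 5 gates of the lineage, Enpp6 nuclei made up 3.14% ± 0.837 after LPA and 4.33% ± 0.598 after vehicle (SD, n = 3, exact permutation p = 0.2).

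The rule counts UMIs, and the depth of Enpp6 nuclei varied between libraries. The median UMIs per Enpp6 nucleus were 6577, 5323 and 6278 in LPA libraries and 5480.5, 4697 and 4260 in vehicle libraries. LPA 2 lay below vehicle 1, so that the groups overlapped (exact permutation p = 0.2, n = 3 per group). In the other gates every LPA library was deeper than every vehicle library: the medians were 4095 to 4516 against 3288 to 3743 UMIs in the precursor gate, 4448 to 4879.5 against 3591 to 4110 in the committed gate, 6787 to 7105 against 4889 to 5921 in the myelin-forming gate and 6472 to 6907 against 4760 to 5758 in the mature gate. In a stricter core gate, with no UMI of *Gpr17*, *Neu4*, *Bmp4*, *Pdgfra*, *Cspg4*, *Anln* or *Hapln2* and at most 1 of *Casr*, *Cemip2* and *Cnksr3*, the share was 0.0836% after LPA and 0.162% after vehicle on average, and for nuclei without *Tcf7l2* it was 0.243% and 0.370%. In both, every LPA library lay below every vehicle library (exact permutation p = 0.1 in each, n = 3 per group).

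When every nucleus with at least 2000 UMIs was thinned at random to 2000 UMIs and the rule applied again, 840 nuclei passed (6304 shallower nuclei were left out, 671 to 1555 per library). Only 111 of them were also Enpp6 nuclei at full depth, which is 13.2% of the thinned set and 27.6% of the 402 Enpp6 nuclei with at least 2000 UMIs. At full depth the others were 246 nuclei of the committed gate, 191 of the myelin-forming gate, 40 of the mature gate and 252 of no gate. At full depth 743 of the 840 nuclei (88.5%) held 3 or more *Tcf7l2* UMIs.

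At this equal depth the order of the groups turned. The thinned share was 1.74%, 1.77% and 1.75% in LPA libraries and 1.18%, 1.60% and 1.24% in vehicle libraries, so that every LPA library lay above every vehicle library (two-sided exact permutation p = 0.1, the smallest possible with n = 3 per group). Over 5 random draws the LPA mean was 1.56% to 1.76% and the vehicle mean 1.22% to 1.37%. The LPA mean was higher in all 5 draws, and in draw 2 the groups overlapped (exact permutation p = 0.4, n = 3 per group). Before thinning, the nuclei of the first draw had median UMIs of 5421 to 6300 after LPA and 4168 to 4723 after vehicle, also without overlap, and the part of this depth in the turn was not tested. The direction of the share that passed the rule thus turned with thinning, in a set that held mostly other nuclei, and neither direction could pass 0.05.

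**Figure D3:**
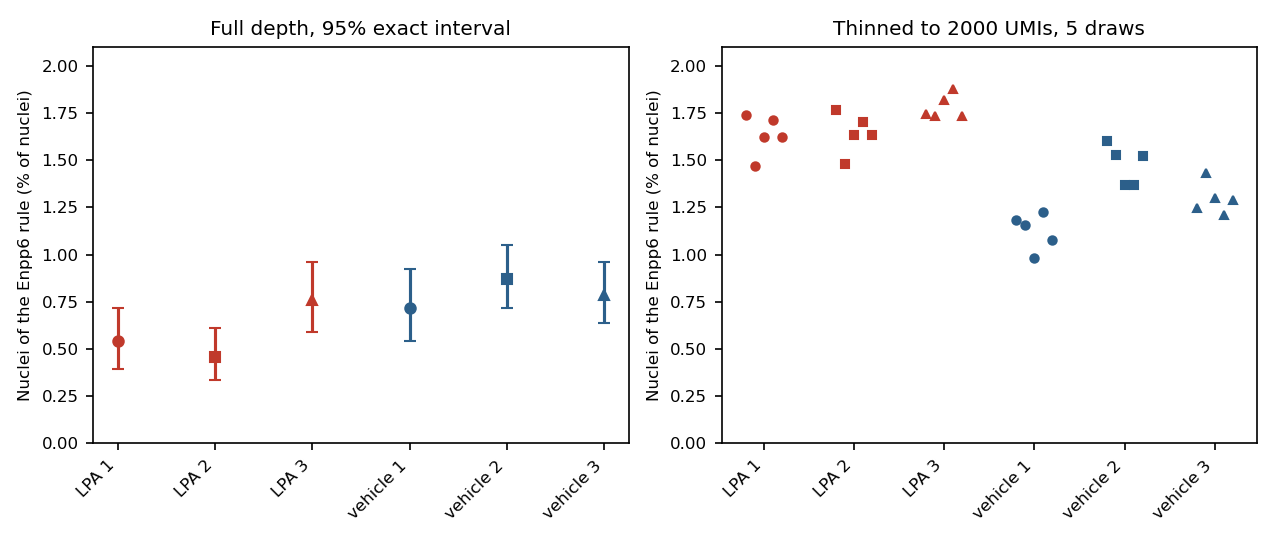
Nuclei that passed the rule as a percent of nuclei in each library (y axis). Left, at full depth (the Enpp6 nuclei), with 95% exact binomial intervals. Right, after thinning every nucleus of at least 2000 UMIs to 2000 UMIs in 5 draws, 1 point per draw. Of 840 nuclei that passed in the first draw, 111 were also Enpp6 nuclei at full depth. At full depth LPA libraries sat at 0.458% to 0.758% and vehicle libraries at 0.716% to 0.870%, and in the first draw LPA libraries sat at 1.74% to 1.77% and vehicle libraries at 1.18% to 1.60%.

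Within the Enpp6 nuclei the shares of the *Tcf7l2* groups overlapped between LPA and vehicle libraries. With n = 3 per group this does not show that they are alike. Nuclei with 3 or more UMIs were 32.6%, 31.9% and 34.8% of Enpp6 nuclei in LPA libraries and 20.7%, 32.4% and 37.1% in vehicle libraries. Vehicle 1 was the lowest and vehicle 3 the highest, and the groups overlapped (exact permutation p = 0.8, n = 3 per group). Nuclei without *Tcf7l2* were 43.5%, 36.2% and 43.5% against 60.3%, 38.9% and 43.3%.

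No gene was called changed by LPA in the Enpp6 nuclei. UMIs were summed per library, and edgeR's quasi-likelihood test with Benjamini-Hochberg adjustment called 0 of 6482 genes (0.0%), where a call needed adjusted p below 0.05 and a log2 difference of 0.25 or more either way. At an unadjusted p under 0.05 there were 245 genes (3.78%), fewer than the 324 that this limit gives by itself, and DESeq2 called 0 genes and had 77 at this limit. Every LPA library lay above every vehicle library for 286 genes (4.41%) and below for 318 (4.91%). Each sum held 287979 to 596442 UMIs from 46 to 108 nuclei. In simulated counts of these 6482 genes at this depth, 35.5% of genes changed by 1 on the log2 scale and 95% of genes changed by 2 were called, so that smaller changes were mostly not detectable. Levels below are CPM scaled by TMM factors, with fold changes of LPA over vehicle.

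In the Enpp6 nuclei as chosen at full depth, genes of the newly formed stage and of myelin had similar levels in both groups. *Tcf7l2* was at 604, 603 and 582 CPM after LPA and at 461, 787 and 771 CPM after vehicle (log2 fold change -0.18 ± 0.20, SE, adjusted p = 0.999, edgeR). It was -0.44 without nuclei marked by Scrublet and 0.84 in the core gate. The vehicle libraries lay on both sides of the LPA libraries. *Itpr2* was at 486, 618 and 634 CPM after LPA and at 289, 618 and 605 CPM after vehicle, with vehicle 1 alone below the rest. Of the 18 newly formed genes tested, 0 reached an unadjusted p under 0.05, 10 were above and 8 below 0 on the log2 scale, and the median was 0.02, beside 0.00 over all genes. *Mog* was at 1294 ± 55.1 against 1282 ± 212 CPM and *Mobp* at 3165 ± 358 against 3677 ± 946 CPM (mean ± SD, n = 3). Of 27 myelin genes tested 0 reached an unadjusted p under 0.05, and the median was -0.04. This changed in the nuclei of the first thinning draw described below. There 5 of 18 newly formed and 17 of 29 myelin genes reached it, all lower, beside 452 lower of all 9887 genes. For 16 myelin genes (55.2%) every LPA library lay below every vehicle library, beside 7.18% of all genes. *Mog* turned to between -0.55 and -0.17 on the log2 scale over the 5 draws.

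No single transcription factor of the lineage passed either. Of 19 tested, 0 reached an unadjusted p under 0.05, 10 were above and 9 below 0 on the log2 scale, and the median was 0.02. Summed without scaling over the 28 factors of the list, the level was 12836, 12081 and 12357 CPM in LPA libraries and 11921, 11429 and 11449 CPM in vehicle libraries, without overlap (exact permutation p = 0.1, the smallest possible with n = 3 per group). Sums of 3 of the 26 lists (11.5%) did not overlap in the Enpp6 nuclei: these factors, higher, and the Wnt and mitochondrial genes, lower. That share is near the exact permutation p of 0.1 that no overlap gives. It was 30.8% in all other nuclei, 23.1% in the committed gate and 19.2% in the mature gate. The sum of the factors overlapped both in nuclei with 3 or more *Tcf7l2* UMIs and in those without (exact permutation p = 0.9 and 0.2, n = 3 per group). Its mean was also higher after LPA, with overlap, in all other nuclei, at 9112 against 8412 CPM. The same held in the committed gate, at 12733 against 12014 CPM, and in the mature gate, at 10700 against 10452 CPM. The most abundant was *St18*, at 4094 ± 467 after LPA and 3809 ± 423 scaled CPM after vehicle (SD, n = 3). *Zeb2*, a repressor of inhibitory signals that promotes myelination, was at 2397, 2457 and 2679 CPM after LPA and at 2316, 2217 and 2019 CPM after vehicle, without overlap (0.20 ± 0.15, SE, on the log2 scale, edgeR adjusted p = 0.999). *Zfp536* was at 2290 ± 166 and 2263 ± 315 CPM. Of 21 precursor genes tested none reached an unadjusted p under 0.05, and their median was 0.21, with 14 above 0. *Tnr* was at 2079 ± 424 after LPA and 1800 ± 840 CPM after vehicle, a difference within the spread of the libraries.

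A few genes of lipid synthesis had a low unadjusted p, and none passed the correction. Over all genes 3.78% reached an unadjusted p under 0.05. Of 21 cholesterol genes tested, 1 reached it, which is near that share, and the median was 0.12 with 15 above 0. Of 16 fatty acid and sphingolipid genes tested, 2 reached it, both higher, with 8 genes above and 8 below 0 and a median of -0.01. The cholesterol gene was *Nsdhl*, a sterol dehydrogenase, at 141, 104 and 122 CPM after LPA and at 98.4, 89.3 and 72.3 CPM after vehicle. *Acsl3*, which activates fatty acids, was at 569, 466 and 441 CPM after LPA and at 381, 359 and 325 CPM after vehicle (0.47 ± 0.17, SE, on the log2 scale, edgeR adjusted p = 0.999). *Fads2*, a fatty acid desaturase, was at 51.7, 74.0 and 30.5 against 21.5, 25.5 and 28.1 CPM. All 3 genes had no overlap between the groups, which 4.41% of all genes had in this direction. In the first thinning draw described below, *Acsl3* turned to -0.27 and *Nsdhl* to -0.02 on the log2 scale.

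Growth factor, matrix and channel genes included single genes of the same kind. *Nrg1*, a ligand of ErbB receptors, was at 986, 773 and 702 CPM after LPA and at 181, 528 and 655 CPM after vehicle, where vehicle 1 was far below the others (0.83 ± 0.33, SE, on the log2 scale, edgeR adjusted p = 0.999). *Spock3*, a proteoglycan, was at 266, 226 and 261 CPM against 203, 195 and 137 CPM, and *Adamts17*, a protease, at 62.1, 104 and 96.3 CPM against 30.8, 36.4 and 66.3 CPM. Over all genes 245 (3.78%) reached an unadjusted p under 0.05, 116 of them higher and 129 lower. Of 20 growth factor, 18 matrix, 29 transmitter and channel, 27 cytoskeletal, 34 adhesion and 12 Wnt genes tested, 1, 2, 1, 1, 1 and 0 reached it on the higher side and 0 on the lower side. The medians of these lists were 0.10, 0.15, 0.01, -0.00, 0.03 and -0.09. The summed Wnt genes, mentioned above as lower, overlapped in both *Tcf7l2* groups (exact permutation p = 0.2 and 0.6, n = 3 per group), and in all other nuclei their mean was higher after LPA, at 2595 against 2453 CPM. *Spock3* turned to -0.15 on the log2 scale in the first thinning draw.

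Of the LPA receptor genes, *Lpar1* was the one with an appreciable level. It was at 272, 281 and 216 CPM after LPA and at 231, 257 and 235 CPM after vehicle (0.08 ± 0.17, SE, on the log2 scale, edgeR adjusted p = 0.999), with overlap, and turned to between -0.41 and -0.30 in the 5 thinning draws described below. Its unscaled level of 196 to 264 CPM in Enpp6 nuclei lay between the committed gate at 45.6 to 69.6 CPM and the myelin-forming gate at 335 to 371 CPM. *Enpp2*, which encodes autotaxin, the enzyme that makes LPA, was at 1548 ± 173 after LPA and 1587 ± 548 CPM after vehicle. *Lpar6* was at 17.2, 25.9 and 14.1 CPM after LPA and at 43.1, 43.7 and 32.1 CPM after vehicle, without overlap (-1.09 ± 0.37, SE, on the log2 scale, edgeR adjusted p = 0.999). The LPA levels of *Lpar6* rest on few UMIs, and 4.90% of all genes had no overlap in this direction. Of 7 genes of the pathway tested, *Lpar6* was the one with an unadjusted p under 0.05, beside 129 lower of all 6474 genes. Without scaling, its mean was 6.9981 CPM in Enpp6 nuclei with 3 or more *Tcf7l2* UMIs and 37.596 CPM in those without *Tcf7l2*. The part of this division in the difference after LPA was not tested.

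Glucocorticoid response and stress genes were measured at low levels. At an unadjusted p under 0.05, 129 of all 6474 genes were lower. Of 12 glucocorticoid genes tested 2 reached this limit, both lower, and the median was -0.23. They were *Per1*, a clock gene, at 34.5, 18.5 and 16.4 CPM against 64.6, 36.4 and 34.1 CPM, and *Zbtb16*, at 55.2, 25.9 and 25.8 CPM against 55.4, 41.9 and 94.4 CPM. For both, the groups overlapped. Summed without scaling over 19 glucocorticoid genes, the groups overlapped in the Enpp6 nuclei and in those without *Tcf7l2* (exact permutation p = 0.6 and 0.2, n = 3 per group). The sum was lower after LPA without overlap in those with 3 or more *Tcf7l2* UMIs, at a mean of 977 against 1282 CPM. The same held in all other nuclei, at 1366 against 1542 CPM, and in the mature and committed gates (exact permutation p = 0.1 in each). *Tsc22d3*, a glucocorticoid-induced leucine zipper, was at 111 ± 31.9 against 158 ± 44.1 CPM and *Fkbp5*, a chaperone of the receptor, was at 44.8, 59.2 and 51.7 against 55.4, 60.1 and 98.4 CPM. Of 10 stress, 9 p53 and cell death, 5 disease-associated, 1 interferon and 2 cell cycle genes tested, 0 reached an unadjusted p under 0.05.

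**Figure D4:**
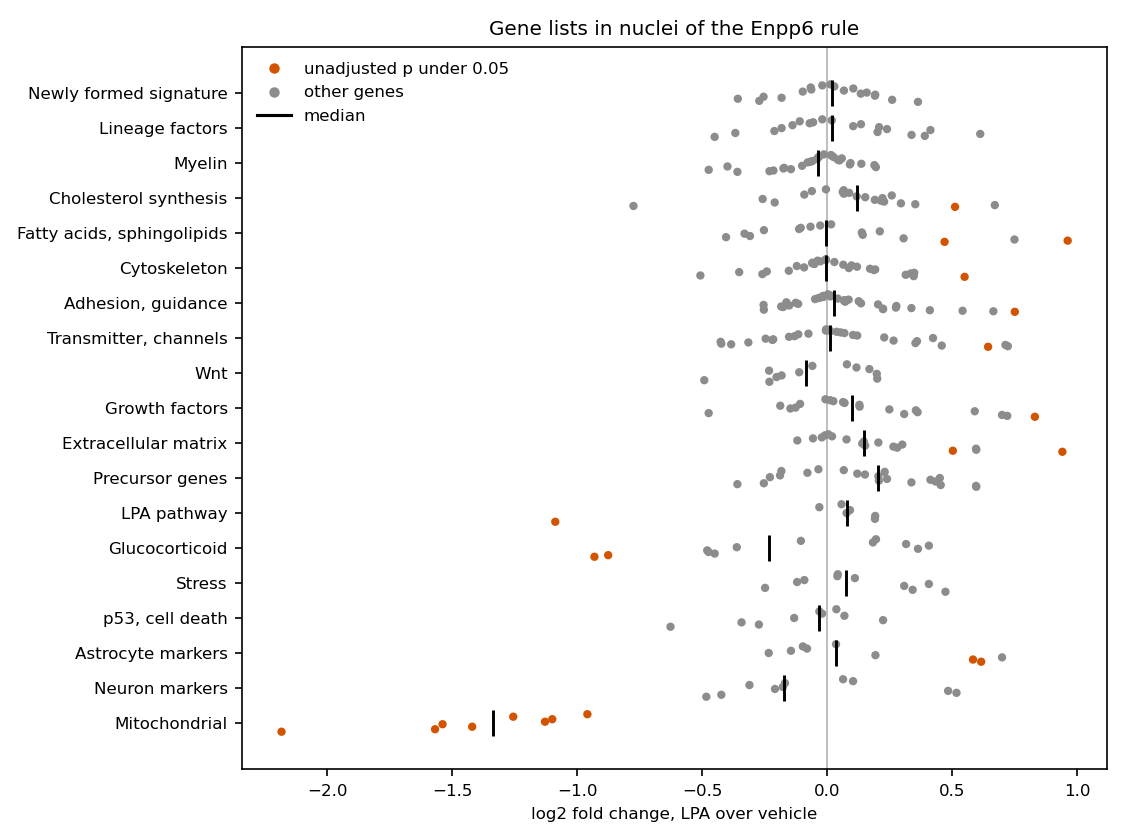
Log2 fold change of LPA over vehicle (x axis) for the tested genes of 19 lists (rows) in the Enpp6 nuclei, 1 point per gene, with a bar at the median of each list and genes of unadjusted p under 0.05 in orange. The medians lie between -0.23 and 0.21 for 18 lists, and that of the mitochondrial genes at -1.34.

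All 8 mitochondrial genes were lower after LPA at an unadjusted p under 0.05, beside 129 of all 6474 genes. For 7 of the 8 (87.5%) the groups did not overlap, beside 4.90% of all genes in this direction. None passed the correction. *mt-Nd1*, a subunit of complex I, was at 3.45, 11.1 and 11.7 CPM after LPA and at 43.1, 32.8 and 52.2 CPM after vehicle (-2.18 ± 0.45, SE, on the log2 scale, edgeR adjusted p = 0.474). The LPA sums held 287979 to 469520 UMIs, so these LPA levels of *mt-Nd1* rest on very few UMIs. *mt-Atp6*, of the ATP synthase, was at 31.0, 22.2 and 72.8 CPM against 114, 126 and 163 CPM (-1.57 ± 0.33, SE, adjusted p = 0.474, edgeR). Summed without scaling over the 8 genes, the level was 212, 146 and 437 CPM after LPA and 697, 659 and 797 CPM after vehicle in the Enpp6 nuclei, and 236, 332 and 526 CPM against 993, 726 and 992 CPM in all other nuclei. The groups thus did not overlap in either set of nuclei (exact permutation p = 0.1 in each, n = 3 per group). Within the Enpp6 nuclei the sum overlapped for those with 3 or more *Tcf7l2* UMIs and did not for those without (exact permutation p = 0.2 and 0.1, n = 3 per group). Mitochondrial RNA is made outside the nucleus and was used as a filter on nuclei, and whether it reflects the preparation was not tested.

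The other genes of lowest unadjusted p were of mixed kinds. *Polr3e*, a subunit of RNA polymerase III, was at 31.0, 44.4 and 37.6 CPM after LPA and at 126, 94.7 and 88.4 CPM after vehicle (-1.43 ± 0.26, SE, on the log2 scale, edgeR adjusted p = 0.474). *Slc6a20a*, an imino acid transporter, was at 27.6, 7.40 and 14.1 CPM against 64.6, 54.7 and 100 CPM, where the LPA levels rest on few UMIs. *Foxp2*, a transcription factor, was at 44.8, 66.6 and 79.8 CPM against 126, 138 and 131 CPM. *Mettl15*, a mitochondrial methyltransferase, was higher, at 51.7, 74.0 and 58.7 CPM against 15.4, 29.2 and 22.1 CPM. *Htr2c*, a serotonin receptor abundant in choroid plexus, was at 48.3, 33.3 and 30.5 CPM against 188, 51.0 and 177 CPM. For these 5 genes the groups did not overlap. They were chosen for their p and none was called. *Foxp2* turned from -1.02 to 0.36 on the log2 scale without nuclei marked by Scrublet, and to 0.15, 0.04 and 0.26 in 3 of the 5 thinning draws described below. In those draws *Mettl15* turned from 1.39 to -0.21, -0.10 and -0.06 in 3, and *Htr2c* from -1.86 to 0.24 and 0.63 in 2. *Polr3e* shrank to between -0.60 and -0.27 in the 5 draws, and *Slc6a20a*, at -2.16, was at -0.37, -1.55, -1.10, -1.14 and -1.94 in them, the last with an edgeR adjusted p = 0.0378.

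**Figure D5:**
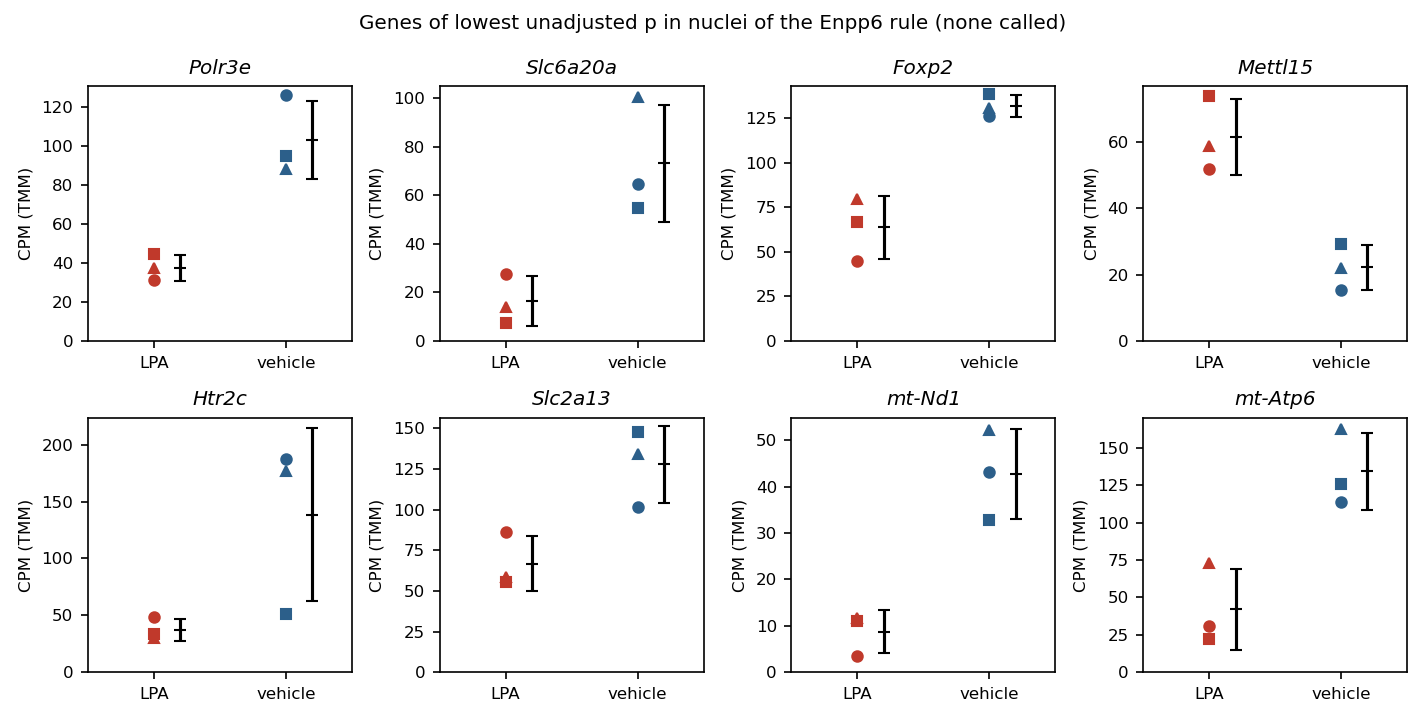
Level in TMM-scaled CPM (y axis) of 8 genes of low unadjusted p in the Enpp6 nuclei of the 3 LPA and 3 vehicle libraries, with the mean and SD of each group in black. *mt-Nd1* was at 3.45 to 11.7 after LPA, which rests on very few UMIs, and 32.8 to 52.2 after vehicle, and no gene passed the adjusted threshold.

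Markers of other cells were present in the Enpp6 nuclei and are given per library without scaling. The 12 astrocyte markers summed to 3230, 2479 and 1614 CPM in LPA libraries and 1493, 1906 and 1969 CPM in vehicle libraries, with *Gpc5* the most abundant at 775 CPM. Of the 9 tested, 5 were above and 4 below 0 on the log2 scale, with a median of 0.04, and *Gpc5* and *Slc1a2*, a glutamate transporter, had an unadjusted p under 0.05 with LPA higher. The 10 ependymal and choroid plexus markers summed to 82.1, 146 and 53.2 CPM against 435, 119 and 248 CPM, with *Htr2c* the most abundant at 81.5 CPM. The 12 immune markers summed to 111, 135 and 42.6 CPM against 131, 240 and 128 CPM. The 12 vascular markers summed to 41.0, 236 and 211 CPM against 108, 119 and 303 CPM, led by *Flt1* at 43.3 CPM. The 12 neuron markers summed to 4304, 2861 and 2901 CPM against 2537, 4279 and 4720 CPM, led by *Meg3* at 1431 CPM. The 1 immune marker tested, *Cx3cr1*, was lower after LPA without overlap (log2 fold change -1.27 ± 0.44, SE). The 2 ependymal and choroid plexus markers tested, *Htr2c* and *Ttr*, were lower too, with *Ttr* at -2.03 ± 0.63 (SE) and with overlap. Each had an unadjusted p under 0.05 by edgeR, and none was called. No marker of the 5 lists was at 0 in every library, all 5 sums overlapped between the groups, and the part of these markers in the differences above was not tested.

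When the rule was applied to thinned nuclei and their full UMIs were tested, the first draw gave 17 called genes of 9899 (0.172%), 9 higher and 8 lower. The other 4 draws gave 0, 0, 21 and 3, so that the calls depended on which nuclei were drawn. *Mobp* was called in 2 of 5 draws, with a log2 fold change of -0.84 to -0.54, and *Kcna1*, a potassium channel, in 2 of 5, at -1.40 to -0.72. *Gfap*, the astrocyte filament protein, was called in 2 of 5 draws at 1.74 to 2.54, and *mt-Atp6* in 3 of 5 at -1.74 to -1.39. *Gfap* was also higher after LPA in all other nuclei, at 58.7, 56.6 and 55.6 CPM against 20.5, 21.0 and 17.8 CPM without scaling. The median of the myelin list was -0.40 to -0.29 over the 5 draws and that of the precursor genes 0.33 to 0.48. The medians of the newly formed genes (-0.16 to -0.07), the lineage factors (-0.15 to -0.08) and the cholesterol genes (-0.22 to -0.15) were below 0 in all 5 draws, where at full depth they were above 0, and that of the astrocyte markers was -0.27 to 0.39. At full depth these nuclei came from several gates, as given above, and the part of that mix in the calls was not tested.

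The difference of the LPA effects between the Enpp6 nuclei and their neighbours in the lineage was tested with the library as a block. Against the committed gate 0 of 10345 genes (0.0%) had an adjusted p under 0.05 by edgeR, with 399 at an unadjusted p under 0.05. Against the myelin-forming gate it was 0 of 12752 (0.0%), with 487. DESeq2 was not run for these tests. *Cdh8*, a cadherin, was among the lowest p in both: its log2 fold change was 1.52 ± 0.39 (SE) in Enpp6 nuclei, -0.15 ± 0.20 in the committed gate and -0.39 ± 0.11 in the myelin-forming gate, with adjusted p = 0.605 and 0.231 for the differences by edgeR. *Htr2c* had the lowest p against the myelin-forming gate, at -1.86 ± 0.46 and 0.49 ± 0.18, with adjusted p = 0.151. The other genes of lowest p were *Pik3r4*, a regulatory subunit of a phosphoinositide kinase, at -1.60 ± 0.41 and 0.56 ± 0.24 in the committed gate, *Adarb2*, related to RNA-editing enzymes, at -0.91 ± 0.27 and 0.49 ± 0.18 there, and *Gm32647*, at -2.10 ± 0.42 and 0.16 ± 0.26 in the myelin-forming gate (SE). In the thinning draws *Gm32647* turned to 0.53, 0.15 and 0.23 in 3 of 5, and in the first *Adarb2* turned to 0.24. *Tspan18* and *Gm10754* had too few UMIs in the Enpp6 nuclei to be tested there by themselves. Among their own contrasts, which share the brains with the Enpp6 nuclei, 26 of 12572 genes (0.207%) were called in the precursor gate, 29 of 11591 (0.25%) in the committed gate, 9 of 13839 (0.065%) in the myelin-forming gate and 61 of 13528 (0.451%) in the mature gate. These gates held more nuclei, and the counts do not show that the effects differ.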

How the data were processed

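Nuclei were isolated by the authors from 6 frozen brains, NeuN-negative nuclei were sorted, and libraries were made with the 10x Genomics 3′ v3 kit. The authors deposited filtered matrices of raw UMI counts from Cell Ranger 4.0.0 on a pre-mRNA reference of mm10, with 32285 genes and no normalization. Libraries held 48852970 to 65688644 UMIs. Separate injected mice were the replicates.

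Gene symbols were used as in the files, and coordinates are from GENCODE M21 (GRCm38, equal to mm10). The members and gene lists were chosen with earlier results of these data known. Genes named were the rule genes and *Tcf7l2*, called genes (none), list members by level, *Lpar1* and *Enpp2*, sex-linked and mitochondrial genes, the 4 of lowest p in each interaction and the 15 of highest ratio to other nuclei. Other list genes and genes at an unadjusted p under 0.05 were named after their values were seen, as were those of the thinned sets. The gates of the other stages used at least 3 *Pdgfra* and *Cspg4* UMIs (precursor) or 3 *Gpr17*, *Neu4* and *Bmp4* UMIs (committed). The later gates used at least 4 *Casr*, *Cemip2* and *Cnksr3* UMIs (myelin-forming) or 2 *Anln* and *Hapln2* UMIs (mature). All had upper limits on markers of other stages, with at most 1 *Enpp6* UMI in the precursor gate. That gate also required at least 2 *Olig1*, *Olig2* and *Sox10* UMIs. The committed and myelin-forming gates also required at least 4 *Bcas1* and *Tns3* UMIs, and the mature gate at least 3 of *Mag*, *Mog* and *Mobp*. Microglial marker nuclei held at least 4 such UMIs. No Enpp6 nucleus fell in another gate, and no Enpp6 barcode was shared by libraries.

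UMIs were summed per library and tested with edgeR 4.0.16 (R 4.3.3), filterByExpr, TMM and the quasi-likelihood test, adjusted by Benjamini-Hochberg, and checked on simulated data with 200 changed genes. Shares were compared by two-sided exact permutation over 20 assignments. Scrublet in scanpy 1.11.5 was run at an expected doublet rate of 0.08 and the nuclei it marked were kept except in an alternative. Alternatives included DESeq2 1.42.0, other filters and scaling, stricter rules, sex, a replicate block, leaving out libraries and thinning to 2000 UMIs. Added after seeing the data were the *Tcf7l2* groups, 4 further thinning draws and the test on nuclei that passed the rule after thinning. Library preparation dates were not given in the sources used here. The level of 1 marker gene is not reported here.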

Additional observations from a re-analysis of the deposited data

How the results depend on the processing

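The share of Enpp6 nuclei among nuclei kept was lower after LPA by 0.206 percentage points on average, which reads -0.206 as LPA minus vehicle, and -1.18 among lineage nuclei. It kept its direction without the mitochondrial filter, with an upper limit on UMIs, without Scrublet calls, at 3 *Enpp6* UMIs, in a stricter core gate and in both *Tcf7l2* groups. After thinning to 2000 UMIs the rule picked mostly other nuclei: in the first draw 111 of 840 were also Enpp6 nuclei at full depth. The difference in the share that passed was then 0.407, 0.189, 0.476, 0.498 and 0.368 percentage points of nuclei in 5 draws and 3.17, 1.68, 3.79, 3.93 and 2.87 of lineage nuclei. The cause of this turn was not tested. At full depth, leaving out 1 library gave -0.292 to -0.142 percentage points of nuclei and -1.64 to -0.813 of lineage nuclei.

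The 0 genes called by edgeR remained 0 under 13 alternatives that kept all libraries and did not thin. Without a filter on low counts 22 of 18891 genes were called, 5 of them mitochondrial and 3 sex-linked, and in the thinned sets 17, 0, 0, 21 and 3. Leaving out 1 library gave 0 to 2 calls: *Ptgds* and *Nnat* without LPA 1, *mt-Co2* without LPA 3 and *Htr2c* without vehicle 2. For the difference from the committed gate 1 gene was called without Scrublet calls and 0 to 1 when 1 library was left out, and for the myelin-forming gate 0 to 3. With the replicate number as a block 0 genes were called and 206 had an unadjusted p under 0.05. Same-numbered libraries had correlations of 0.058, 0.107 and -0.099 in their deviations over 6482 genes, and unlike-numbered ones of -0.168 to 0.095. With 3 libraries per group these values cannot settle whether the numbers pair the libraries. Single genes turned too: *Tcf7l2* to 0.84 in the core gate and *Foxp2* to 0.36 without Scrublet calls, and *Gm32647* to at most 0.53 in 3 thinning draws. Depth limits these results: the smallest library had 46 Enpp6 nuclei.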
